A study of Mus musculus with 6 samples.

Results

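The levels of 10 genes that mark sinusoidal and other endothelial cells of the liver were compared in RNA sequencing of isolated mouse hepatocytes. Members were the rows whose gene name was Stab1, Stab2, Lyve1, Clec4g, Oit3, Pecam1, Kdr, Tie1, Tek or Egfl7, and 10 of 10 were found among the 54532 genes of the table and passed the filter on low counts. The XCKO group held 3 libraries from Xbp1ΔHep mice, in which Xbp1 is deleted in hepatocytes, and the XCON group 3 libraries from Xbp1FL/FL mice, which carry the floxed alleles without the deletion. All mice were of C57BL/6 background, aged 32 to 34 weeks, and all had received a high-fat diet (HFD) for 26 weeks, so neither group shows the genes on a normal diet. The sources used here do not give the Cre driver. The labels of single samples name no animal, so the p-values reflect spread over libraries, which may be technical. The labels call the cells primary mouse hepatocytes, and the summed level of 8 hepatocyte markers was 84420 to 112600 CPM (reads per 1000000 of the scaled total) in XCKO and 62990 to 87560 CPM in XCON. With this scaling the CPM summed over all genes also differed, with a mean of 1099000 in XCKO and 912900 in XCON.

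Liver sinusoidal endothelial cells line the hepatic capillaries, are perforated by open pores and lack a continuous basement membrane. They clear waste molecules from blood through scavenger receptors, and they signal to neighbouring hepatocytes. In chronic injury they are known to lose these traits and to become more like ordinary capillary endothelium. XBP1 is a transcription factor that the unfolded protein response activates. Its deletion is labelled as one in hepatocytes, whereas the 10 genes are known mainly from endothelial cells. In a bulk sample, fewer cells of a type and less RNA per cell cannot be told apart. Nor can a different number of other cells left in a hepatocyte preparation, so these levels need not be those of the liver.

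Total counts were 26477489 to 27240079 in XCKO and 23919355 to 26502456 in XCON. Xbp1 fell in XCKO, with 59.0, 39.3 and 67.4 CPM in XCKO 1, 2 and 3, against 171.4, 294 and 319 CPM in XCON 1, 2 and 3, and a log2 fold change of -2.24 ± 0.29 (SE). The quasi-likelihood F test of edgeR, used throughout with Benjamini-Hochberg adjustment over 14873 tested genes, gave an adjusted p of 0.00837. Mitochondrial transcripts took 8.99% to 13.1% of counts in XCKO, against 22.8%, 9.79% and 9.3% in XCON 1, 2 and 3.

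The 5 sinusoidal members were Stab1 and Stab2, related scavenger receptors (stabilins) that take up hyaluronan and modified lipoproteins, Lyve1, a hyaluronan receptor, Clec4g, a C-type lectin also called LSECtin, and Oit3, a protein with EGF-like and zona pellucida domains. The 5 pan-endothelial members were Pecam1, a junctional adhesion molecule (CD31), Kdr, the main receptor for VEGF-A, Tie1 and Tek, related receptor tyrosine kinases of the angiopoietin pathway, and Egfl7, a secreted endothelial protein. Of these, Stab1 and Lyve1 are also known from macrophages, and Pecam1 from leukocytes and platelets. RefSeq promoter sequence (GRCm38.p6) was at hand for 7 of the 10, as 9 promoters. The 250 bases before the start of the pairs of relatives are shown, because their values are compared as ratios below. Capitals mark the letters GGAAG, a longer form of the GGAA core of ETS binding motifs, or their reverse complement CTTCC.
Tie1 (chr4:118489850-118490099, minus strand): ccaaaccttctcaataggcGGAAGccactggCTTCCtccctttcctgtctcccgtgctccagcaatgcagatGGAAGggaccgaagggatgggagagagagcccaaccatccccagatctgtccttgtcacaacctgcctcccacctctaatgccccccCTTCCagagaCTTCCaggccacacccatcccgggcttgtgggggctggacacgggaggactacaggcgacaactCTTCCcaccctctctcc
Tek (chr4:94739039-94739288, plus strand): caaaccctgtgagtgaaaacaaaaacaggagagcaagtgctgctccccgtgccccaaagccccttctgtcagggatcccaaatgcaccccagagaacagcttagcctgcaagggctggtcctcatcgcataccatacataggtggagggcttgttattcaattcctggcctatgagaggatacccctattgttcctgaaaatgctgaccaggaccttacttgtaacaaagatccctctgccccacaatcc
Stab2 (chr10:87007943-87008192, minus strand): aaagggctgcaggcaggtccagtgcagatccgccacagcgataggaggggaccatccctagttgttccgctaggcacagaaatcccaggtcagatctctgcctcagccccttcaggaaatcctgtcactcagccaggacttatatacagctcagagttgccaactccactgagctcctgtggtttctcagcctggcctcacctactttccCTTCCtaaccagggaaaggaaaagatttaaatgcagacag
Stab1 (chr14:31168642-31168891, minus strand): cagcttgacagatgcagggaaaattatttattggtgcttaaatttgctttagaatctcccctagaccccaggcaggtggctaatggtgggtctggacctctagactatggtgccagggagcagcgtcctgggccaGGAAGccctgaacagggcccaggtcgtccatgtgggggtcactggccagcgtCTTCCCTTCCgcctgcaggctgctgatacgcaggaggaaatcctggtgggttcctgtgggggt
These marked letters occurred 6 times before Tie1, 0 times before Tek, 1 time before Stab2 and 3 times before Stab1. Shorter GGAA or TTCC matches, which the windows of Tek and Stab2 also hold, were not marked or counted. GGAAG or CTTCC was present in 7 of the 9 member promoters and in 64.1% of all 32851 RefSeq promoters of this length. The letters AGATAA, which GATA factors bind, were in 0 of the 9 and in 9.99% of all. The letters GACGTG, which lie at the core of an element bound by XBP1, were in 0 of the 9 and in 5.2% of all, both strands searched. These matches describe the letters of these windows only.

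Per gene length, Clec4g and Oit3 had the highest mean levels and Tek and Egfl7 the lowest in XCON. The authors' deposited FPKM values averaged 23.5 ± 5.6 in XCKO and 18.2 ± 1.3 in XCON for Clec4g (SD, n = 3 each). For Oit3 they averaged 19.3 ± 9.2 in XCKO and 17.6 ± 0.91 in XCON. Stab2 followed with 17.2 ± 8.6 FPKM in XCKO and 13.4 ± 1.1 in XCON, and Stab1 with 10.4 ± 4.5 FPKM in XCKO and 10.04 ± 0.66 in XCON. In XCON, the mean ± SD of Clec4g overlapped that of Oit3. Lyve1 overlapped Stab1, Kdr and Pecam1 in the same way, and Tie1 overlapped Egfl7. The mean of Lyve1 was 8.57 ± 5.4 FPKM in XCKO and 9.26 ± 1.9 in XCON, and that of Kdr 10.1 ± 2.3 FPKM in XCKO and 8.53 ± 0.39 in XCON. Pecam1 had 7.12 ± 3.1 FPKM in XCKO and 7.31 ± 0.20 in XCON. Tie1 had 7.77 ± 2.7 FPKM in XCKO and 5.01 ± 0.15 in XCON, and Egfl7 7.54 ± 3.3 FPKM in XCKO and 4.38 ± 0.56 in XCON. Tek, at 4.79 ± 1.3 FPKM in XCKO and 4.41 ± 0.21 in XCON, was level with Egfl7 in XCON. With the SDs of XCKO, no neighbouring pair in this order was apart there.

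None of the 10 endothelial genes passed the test between XCKO and XCON. The count past an adjusted p of 0.05 was 0 of 10, against 9.27% of all tested genes. In edgeR 2 of the 10 had an unadjusted p under 0.05, against 29.7% of all tested genes. DESeq2 and the authors' deposited table also called 0 of the 10 (17.8% and 10.2% of all genes). Log2 fold changes were positive in 8 of 10 (in 4 of 10 when scaled by library totals), against 46.5% of all tested genes, with a median of 0.15, beside -0.05 over all tested genes. With 1 exception, Tie1, the XCKO and XCON libraries overlapped in each of the 10, whereas the groups did not overlap in 35.7% of all tested genes. What set the groups apart to the eye was the spread: in each of the 10, XCKO libraries differed more among themselves than XCON libraries did.

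**Figure D1:**
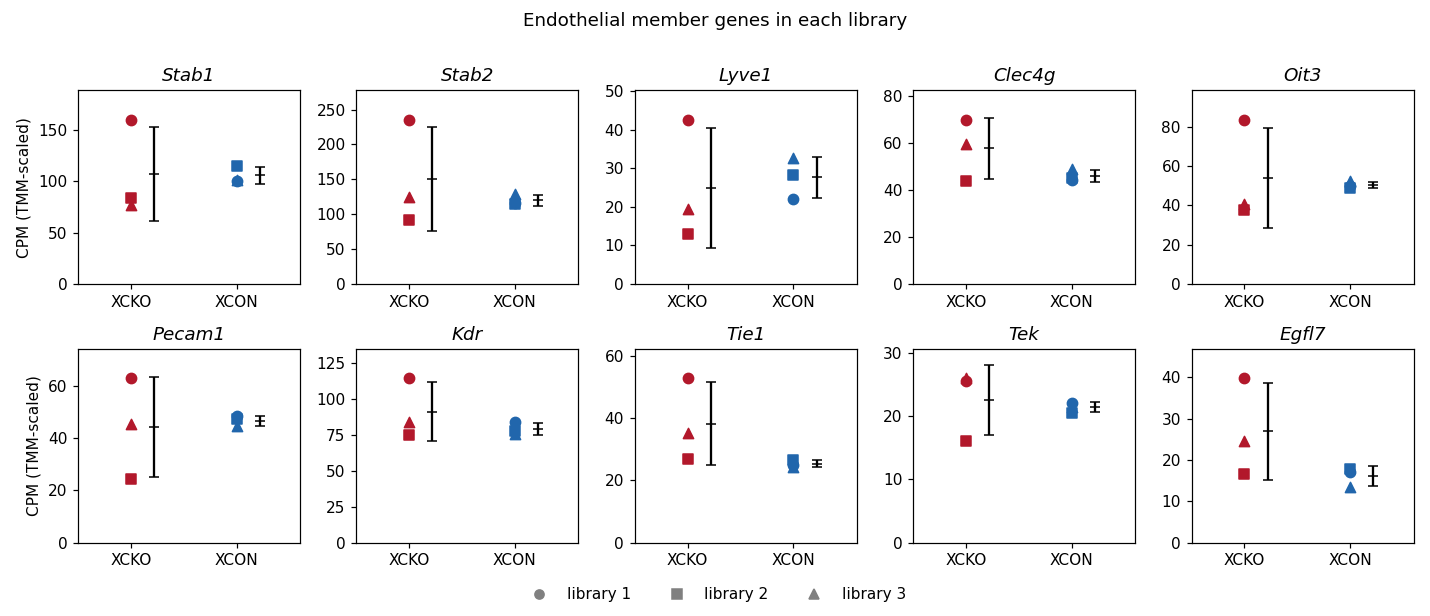
CPM of the 10 endothelial genes in each library, XCKO on the left (red) and XCON on the right (blue), with 1 panel per gene, the marker shape giving the library number within a group and black bars the mean ± SD (n = 3). XCKO 1 is the highest point in 9 of the 10 panels, and the XCON points lie closer together than the XCKO points in each panel, with their widest relative spread in Lyve1.

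Among the scavenger receptors, Stab2 had 235.2, 92.4 and 124.2 CPM in XCKO 1, 2 and 3, against 116.5, 114.7 and 128.8 CPM in XCON 1, 2 and 3. XCKO 1 stood above every XCON library, XCKO 2 below all of them, and XCKO 3 among them. Its log2 fold change of 0.33 ± 0.32 (SE) had a 95% interval of -0.40 to 1.05 (adjusted p = 0.523 in edgeR). Stab1 had 160.1, 84.3 and 77.1 CPM in XCKO 1, 2 and 3, against 100.8, 115.6 and 101.9 CPM in XCON 1, 2 and 3. Again XCKO 1 was above all XCON libraries, while both other XCKO libraries were below all of them. The log2 fold change of Stab1 was 0.01 ± 0.27 (95% interval -0.60 to 0.63, adjusted p = 0.977 in edgeR).

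Lyve1 varied most, with 42.6, 13 and 19.4 CPM in XCKO 1, 2 and 3, against 22.1, 28.2 and 32.8 CPM in XCON 1, 2 and 3. XCKO 1 was the highest of all libraries and XCKO 2 and 3 were the lowest, and the log2 fold change was -0.15 ± 0.41 (adjusted p = 0.835 in edgeR). Clec4g, the lectin, had 70.0, 43.9 and 59.6 CPM in XCKO 1, 2 and 3, against 44.2, 45.1 and 48.9 CPM in XCON 1, 2 and 3. In Clec4g, XCKO 1 and 3 lay above XCON and XCKO 2 just below it, with a log2 fold change of 0.33 ± 0.18 and an adjusted p of 0.263 in edgeR. Oit3 had 83.4, 37.4 and 40.8 CPM in XCKO 1, 2 and 3, against 49.8, 49.0 and 52.2 CPM in XCON 1, 2 and 3. Its XCKO libraries lay on both sides of a narrow XCON range, and its log2 fold change was 0.10 ± 0.29 (adjusted p = 0.847 in edgeR).

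Of the 3 receptor kinases, Tie1 had 52.7, 26.7 and 35.1 CPM in XCKO 1, 2 and 3, against 25.0, 26.6 and 24.4 CPM in XCON 1, 2 and 3. Every XCKO library was above every XCON library, although XCKO 2 exceeded XCON 2 by little. The log2 fold change of Tie1 was 0.59 ± 0.23 (95% interval 0.07 to 1.11), with an unadjusted p of 0.0304 and an adjusted p of 0.127 in edgeR (0.0357 without a filter on low counts). Tek, its relative, had 25.6, 16.1 and 25.9 CPM in XCKO 1, 2 and 3, against 22.1, 20.5 and 21.5 CPM in XCON 1, 2 and 3. It was the 1 gene of the 10 whose highest library was XCKO 3, and its log2 fold change was 0.08 ± 0.19 (95% interval -0.35 to 0.51, adjusted p = 0.811 in edgeR). Kdr had 114.2, 75.2 and 83.7 CPM in XCKO 1, 2 and 3, against 83.6, 78.0 and 75.8 CPM in XCON 1, 2 and 3. Apart from XCKO 1, the Kdr libraries lay within about the same range, and the log2 fold change was 0.20 ± 0.18 (adjusted p = 0.49 in edgeR).

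Egfl7 had 39.7, 16.7 and 24.6 CPM in XCKO 1, 2 and 3, against 17.1, 17.8 and 13.5 CPM in XCON 1, 2 and 3. XCKO 1 and 3 were above XCON and XCKO 2 was inside its range. Its log2 fold change, 0.74 ± 0.30 (95% interval 0.06 to 1.43), was the largest of the 10, with an unadjusted p of 0.0373 and an adjusted p of 0.143 in edgeR. In the authors' deposited table Egfl7 had a log2 fold change of 0.78 (adjusted p = 0.0593) and Tie1 one of 0.63 (adjusted p = 0.0799). Egfl7 shares 11.2% of its exonic bases with other annotated genes, among them Agpat2 on the opposite strand and the microRNA gene Mir126a on the same strand. The strand setting of the counting is unknown, so reads from those bases cannot be assigned with certainty. In the other 9 members such bases were 5.93% of the exons or less. Pecam1 had 62.9, 24.4 and 45.5 CPM in XCKO 1, 2 and 3, against 48.3, 47.3 and 44.6 CPM in XCON 1, 2 and 3. XCKO 2 was below all XCON libraries and XCKO 1 above them, and the log2 fold change was -0.08 ± 0.30 (adjusted p = 0.881 in edgeR).

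The spread within groups ran the same way in all 10 members. Summed over the 10, the level was 886.3, 430.1 and 536 CPM in XCKO 1, 2 and 3, against 529.5, 542.8 and 544.2 CPM in XCON 1, 2 and 3. The coefficient of variation of this sum was 38.7% in XCKO and 1.51% in XCON. The mean was 617.5 ± 239 CPM in XCKO and 538.8 ± 8.1 CPM in XCON (SD, n = 3 each). On the log2 CPM scale the median SD of the members was 0.60 in XCKO and 0.08 in XCON, while over all tested genes it was 0.26 in XCKO and 0.25 in XCON. The SD was larger in XCKO in 10 of 10 members, and in 52.5% of all tested genes. It was also larger in XCKO in 14 of 14 other sinusoidal genes, 17 of 20 other pan-endothelial genes and 7 of 9 genes of endothelial activation. In vascular signalling genes it was larger in XCKO in 11 of 20, in macrophage markers in 11 of 12 and in stellate markers in 6 of 12. XCKO 1 was the highest of the 6 libraries in 9 of 10 members, against 12.4% of all tested genes, and XCKO 2 was the lowest in 7 of 10, against 20.2% of all. Members in XCKO 1 were at a median of 1.86 times the mean of XCKO 2 and 3, from 1.22 times in Tek to 2.63 times in Lyve1, and the same ratio over all tested genes had a median of 0.99. The members were chosen because they mark 1 kind of cell, so they are not independent of each other, and no test was made of the spread.

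The direction of several members depended on single XCKO libraries. Without XCKO 1 the log2 fold changes were positive in 4 of 10, with a median of -0.08, and Lyve1 had -0.76, Pecam1 -0.41, Stab1 -0.38 and Oit3 -0.35. The summed level itself had a log2 ratio of 0.20 (XCKO over XCON), and -0.16 without XCKO 1. Without XCKO 2 the fold changes were positive in 10 of 10, with a median of 0.36. In that fit Tie1 (0.84, adjusted p = 0.0389 in edgeR) and Egfl7 (1.04, adjusted p = 0.0322 in edgeR) passed, beside 5.23% of all genes tested there. Without XCKO 1 they stood at 0.30 for Tie1 (adjusted p = 0.3 in edgeR) and 0.36 for Egfl7 (adjusted p = 0.316 in edgeR). No member passed when any 1 of the other 5 libraries was left out.

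**Figure D2:**
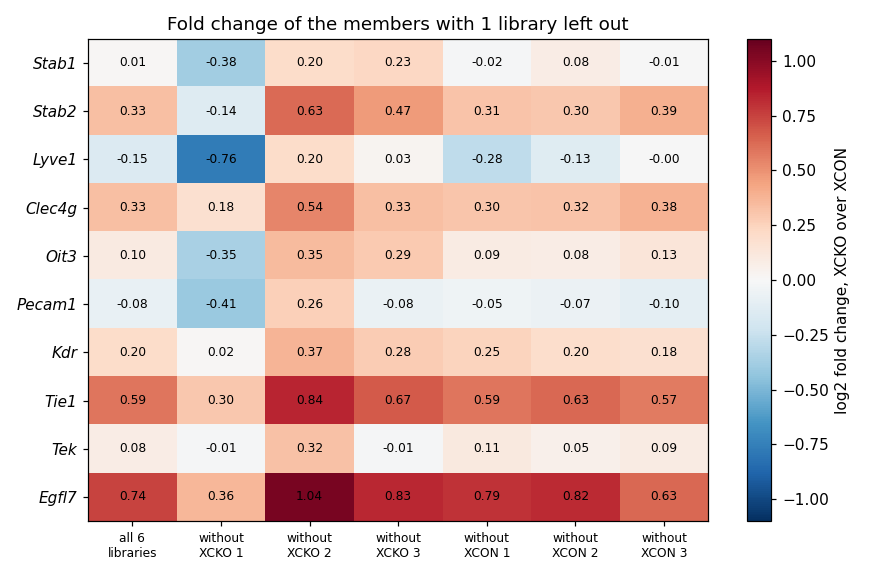
Log2 fold change (XCKO over XCON, edgeR) of the 10 endothelial genes with all 6 libraries and with each library left out, printed in each cell and coloured red above 0 and blue below 0. Leaving out XCKO 1 lowers all 10 values and leaving out XCKO 2 raises all 10, while leaving out an XCON library moves them little.

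With the shared level taken out, Tie1 and Egfl7 stood higher among the members in XCKO, and Pecam1 lower. Each member's log2 CPM was set against the mean of the other 9 in the same library. Tie1 was at -0.49, -0.39 and -0.42 in XCKO 1, 2 and 3, against -0.87, -0.82 and -0.94 in XCON 1, 2 and 3. All XCKO values of Tie1 were above all XCON values, by 0.44 on average. Egfl7 was at -0.95, -1.15 and -0.99 in XCKO 1, 2 and 3, against -1.47, -1.46 and -1.89 in XCON 1, 2 and 3, a mean difference of 0.58 with no overlap. Pecam1 was at -0.21, -0.54 and -0.0015 in XCKO 1, 2 and 3, against 0.19, 0.10 and 0.03 in XCON 1, 2 and 3, a mean difference of -0.36, also with no overlap. The groups overlapped in the other 7. In plain CPM the groups did not overlap in 35.7% of all tested genes, and no such share was computed for this relative measure. Tie1, Egfl7 and Pecam1 were named here after their values were seen and carry no test.

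**Figure D3:**
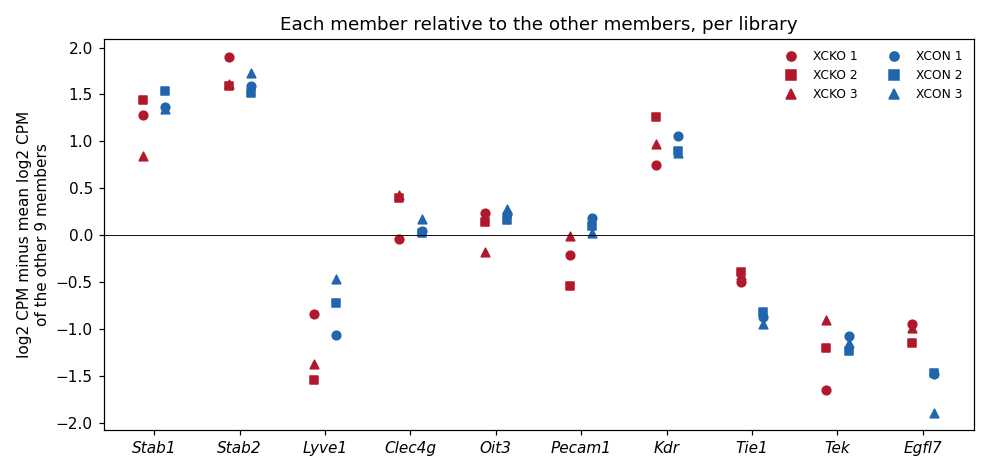
Each endothelial gene's log2 CPM minus the mean log2 CPM of the other 9, per library, with XCKO in red to the left of XCON in blue. For Tie1 and Egfl7 the XCKO points lie above the XCON points, for Pecam1 below, and for the other 7 they overlap.

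The pairs of relatives were compared as ratios. The Tie1 to Tek ratio of CPM was 2.06, 1.66 and 1.36 in XCKO 1, 2 and 3, against 1.13, 1.3 and 1.14 in XCON 1, 2 and 3. It did not overlap between groups, with a log2 difference of 0.49 and an exact two-sided permutation p of 0.1, the smallest that 20 label assignments allow (0.2 after Benjamini-Hochberg adjustment over the 2 pairs). The Stab2 to Stab1 ratio was 1.47, 1.1 and 1.61 in XCKO 1, 2 and 3, against 1.16, 0.992 and 1.26 in XCON 1, 2 and 3, with an exact permutation p of 0.3. Its groups overlapped, and its log2 difference was 0.28.

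Of 4 further lists of endothelial genes, 63 of 67 genes were tested and 0 passed, against 9.27% of all tested genes. An unadjusted p under 0.05 was reached by 13 of the 63, against 29.7% of all. The groups did not overlap in 12 of the 63 (2 higher and 10 lower in XCKO), against 35.7% of all tested genes. The genes named below were picked by smallest p, so they hold more of these than the lists do. DESeq2 called 5 of them, against 17.8% of all, and edgeR without a filter on low counts called 2 (Cldn5 and Vegfd), against 8.12% of all. The median log2 fold change was -0.04 in 14 other sinusoidal genes, 0.17 in 20 other pan-endothelial genes, 0.04 in 20 vascular signalling genes and -0.08 in 9 genes of endothelial activation. XCKO 1 was the highest library in 9, 13, 9 and 2 of these, in the same order of lists.

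**Figure D4:**
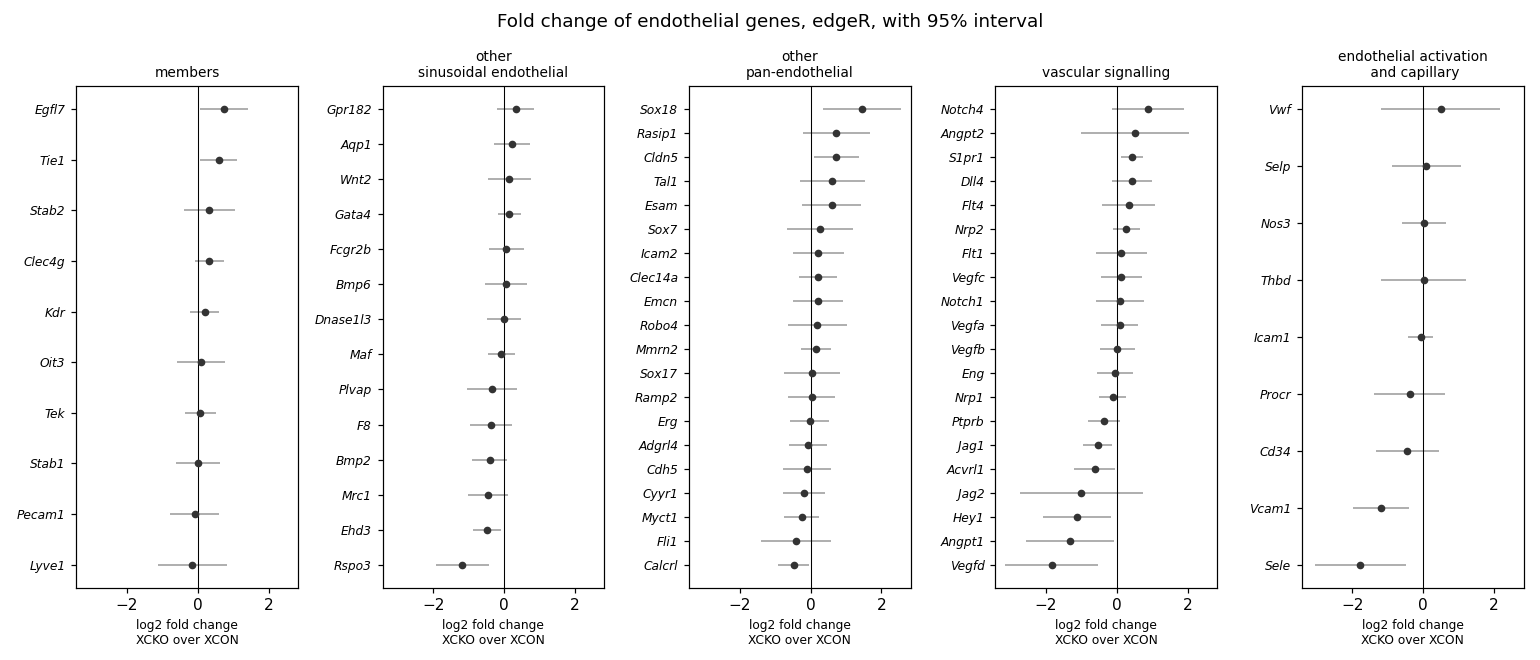
Log2 fold change (XCKO over XCON, edgeR) with 95% interval for the 10 members and the tested genes of 4 further endothelial lists, each panel sorted by value. Most intervals cross 0, and among those that do not are Tie1 and Egfl7 on the higher side and Rspo3, Vcam1 and Sele on the lower side. No gene shown passed an adjusted p of 0.05.

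Among the sinusoidal genes, the lowest p belonged to Rspo3, which encodes a Wnt-enhancing signal of central vein endothelium that maintains liver zonation. Rspo3 had 1.13, 0.93 and 1.34 CPM in XCKO 1, 2 and 3, against 2.23, 2.93 and 2.54 CPM in XCON 1, 2 and 3. All XCKO libraries lay below all XCON libraries, XCKO 1 included, with a log2 fold change of -1.18 ± 0.33 and an adjusted p of 0.055 in edgeR. In the authors' deposited table its adjusted p was 0.029. Wnt2, another Wnt signal of these cells, had a log2 fold change of 0.15 ± 0.27, and Wnt9b was too low to test, both chosen after their values were seen. Ehd3, a membrane trafficking protein, had 54.4, 52.8 and 40.3 CPM in XCKO 1, 2 and 3, against 60.1, 68.0 and 79.3 CPM in XCON 1, 2 and 3 (-0.49 ± 0.17, adjusted p = 0.101 in edgeR). It too did not overlap between groups. The scavenger receptor Mrc1 (-0.45 ± 0.25), coagulation factor gene F8 (-0.38 ± 0.26) and the iron-regulating ligand gene Bmp2 (-0.41 ± 0.22) had adjusted p-values of 0.25 to 0.369. Without XCKO 1, F8 and Bmp2 passed as lower, beside 4.43% of all genes tested there. Stellate and macrophage markers, given below, also had negative median log2 fold changes. Which cells the reads of Rspo3 and Mrc1 came from was not tested.

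In the pan-endothelial list, Sox18, a transcription factor of vessel development, had 29.2, 10.6 and 12.2 CPM in XCKO 1, 2 and 3, against 5.27, 9.57 and 4.19 CPM in XCON 1, 2 and 3. Its libraries did not overlap, and its log2 fold change was 1.45 ± 0.47, with adjusted p-values of 0.09 in edgeR and of 0.0035 in the authors' deposited table. The tight junction gene Cldn5 had a log2 fold change of 0.73 ± 0.27, Rasip1 0.73 ± 0.42 and the junctional gene Esam 0.60 ± 0.36. XCKO 1 was the highest library in each of these 3. Without it Sox18 stood at 0.85, Cldn5 at 0.61, Rasip1 at 0.07 and Esam at 0.06. Calcrl, a receptor component for adrenomedullin, had 16.4, 10.7 and 15.4 CPM in XCKO 1, 2 and 3, against 20.2, 17.1 and 22.01 CPM in XCON 1, 2 and 3. It lay lower in all XCKO libraries, with a log2 fold change of -0.48 ± 0.19 and an adjusted p of 0.137 in edgeR. Without XCKO 2 its log2 fold change was -0.26.

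Among vascular signalling genes, Vegfa, the chief ligand of Kdr and one that hepatocytes make, had 142, 205.9 and 127.3 CPM in XCKO 1, 2 and 3, against 145.8, 183.4 and 122.5 CPM in XCON 1, 2 and 3. The groups overlapped fully, with a log2 fold change of 0.07 ± 0.23 (adjusted p = 0.854 in edgeR). S1pr1, a receptor for sphingosine 1-phosphate that stabilises endothelial junctions, had 70.6, 69.2 and 65.4 CPM in XCKO 1, 2 and 3, against 46.9, 55.4 and 49.6 CPM in XCON 1, 2 and 3. Here the XCKO libraries agreed closely among themselves and all exceeded XCON, with a log2 fold change of 0.43 ± 0.14 and an adjusted p of 0.0765 in edgeR (0.0364 in the authors' deposited table). The Notch ligand gene Jag1 had 7.57, 7.03 and 7.95 CPM in XCKO 1, 2 and 3, against 9.74, 10.3 and 12.8 CPM in XCON 1, 2 and 3 (-0.54 ± 0.18, adjusted p = 0.0849 in edgeR). The Notch target Hey1 (-1.13 ± 0.42), the BMP receptor gene Acvrl1 (-0.63 ± 0.25) and the lymphangiogenic ligand gene Vegfd (-1.84 ± 0.57) also had lower values in every XCKO library, with adjusted p-values of 0.0743 to 0.137. In the authors' deposited table Vegfd had an adjusted p of 0.0438 and Hey1 one of 0.091. Single libraries carried part of these values: Vegfd was at -1.17 without XCON 1, Hey1 at -0.66 without XCON 2, and Acvrl1 at -0.40 without either XCON 2 or XCKO 2. Vegfd was near the limit of detection, at 0.24 to 0.43 CPM in XCKO and 0.73 to 2.16 CPM in XCON. Of the angiopoietins, which act on Tek, Angpt1 was at 0.12 to 0.39 CPM in XCKO and 0.62 to 0.84 CPM in XCON, and Angpt2 at 1.59 to 9.80 CPM in XCKO and 2.46 to 3.85 CPM in XCON. These 2 and Vegfa were chosen as ligands of members.

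Of the activation genes, the leukocyte adhesion molecule Vcam1 had 41.3, 15.6 and 35.5 CPM in XCKO 1, 2 and 3, against 55.1, 76.6 and 78.7 CPM in XCON 1, 2 and 3. All XCKO libraries were lower, with a log2 fold change of -1.19 ± 0.34 and an adjusted p of 0.0691 in edgeR (0.00552 in the authors' deposited table). Vcam1 is also made by macrophages and other cells, and the macrophage values below moved beside it. The part of macrophages in it was not tested. E-selectin (Sele), an inducible endothelial adhesion molecule, was near the detection limit, at 0.26 to 0.35 CPM in XCKO and 0.62 to 1.86 CPM in XCON (-1.77 ± 0.57, adjusted p = 0.0796 in edgeR). Without XCON 3 its log2 fold change was -1.1. The capillary marker Cd34 (-0.46 ± 0.39), Procr (-0.39 ± 0.44) and Vwf (0.50 ± 0.70) overlapped between groups, and Vwf reached 21.9 CPM in XCKO 3 and lay at 4.41 to 11.1 CPM elsewhere. Without XCKO 3 the log2 fold change of Vwf was -0.67, and without XCKO 2 that of Cd34 was -0.08 and that of Procr -0.01.

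Most markers of other non-parenchymal cells had lower levels in XCKO. The summed level of 12 macrophage markers was 1054, 408.1 and 1098 CPM in XCKO 1, 2 and 3, against 1342, 2250 and 1168 CPM in XCON 1, 2 and 3. Of the 12, 1 passed as lower (Cd68, chosen after its values were seen), beside 4.05% of all genes. In 12 of 12 the log2 fold change was negative, with a median of -0.90, whereas it was positive in 46.5% of all tested genes. The count past the threshold was 0 with a replicate block, without XCKO 1 or without XCON 2. It was 5 with DESeq2 and in the authors' deposited table, which called 17.8% and 10.2% of all genes. The 12 stellate cell markers summed to 343.8, 141.1 and 229.6 CPM in XCKO 1, 2 and 3, against 332.4, 580.2 and 701.2 CPM in XCON 1, 2 and 3. Lrat, Pdgfrb and Acta2 passed as lower, the only 3 of the 12 that did, beside the same 4.05% of all genes, and the median was -1.003. The stellate count was 0 with a replicate block, without XCKO 3 or without XCON 3. It was 7 with DESeq2 and in the authors' deposited table, beside the same 17.8% and 10.2% of all genes. These alternatives for both counts were chosen after seeing the data. XCKO 2 was the lowest library in 11 of 12 macrophage and 11 of 12 stellate markers, as it was in 7 of 10 endothelial members and in 20.2% of all tested genes. XCKO 1 was the highest in 0 of 12 of either, against 12.4% of all tested genes. No marker of these lists was at 0 in all libraries. Summed endothelial members per summed stellate markers were 2.58, 3.05 and 2.33 in XCKO 1, 2 and 3, against 1.59, 0.935 and 0.776 in XCON 1, 2 and 3, without overlap. The same ratio to macrophage markers was 0.841, 1.05 and 0.488 in XCKO 1, 2 and 3, against 0.394, 0.241 and 0.466 in XCON 1, 2 and 3, also without overlap. Per summed hepatocyte markers it was 0.00894, 0.0051 and 0.00476 in XCKO 1, 2 and 3, against 0.00841, 0.0062 and 0.00687 in XCON 1, 2 and 3. There the groups overlapped, with XCKO 1 above and XCKO 2 and 3 below every XCON library. The 6 cholangiocyte markers summed to 82.5 to 161.8 CPM in XCKO and 251.3 to 583.2 CPM in XCON, and 9 lymphocyte markers to 16.0 to 53.2 CPM in XCKO and 56.1 to 117.5 CPM in XCON. The 5 erythroid markers summed to 405.2, 77.4 and 917.3 CPM in XCKO 1, 2 and 3, against 42.1 to 70.0 CPM in XCON, and neutrophil markers to 2.91 to 67.4 CPM in XCKO and 2.91 to 15.8 CPM in XCON. The part of these cells in the endothelial values was not tested.

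**Figure D5:**
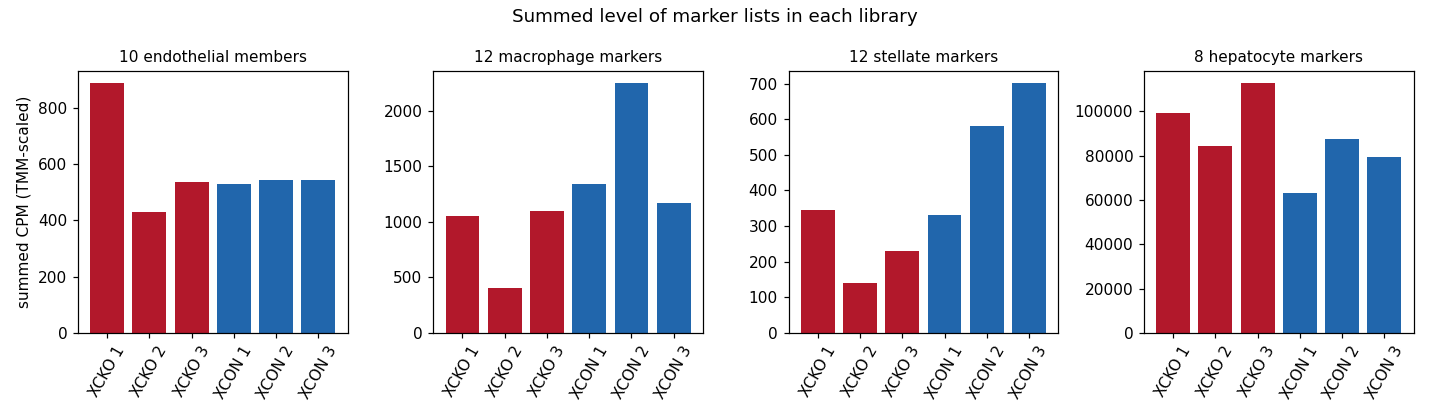
Summed CPM of the 10 endothelial members, 12 macrophage markers, 12 stellate markers and 8 hepatocyte markers, with 1 bar per library, XCKO in red left of XCON in blue, and an axis from 0 for each list. The endothelial sum is highest in XCKO 1 and nearly level over XCON, while the stellate sum in XCON 2 and 3 exceeds all XCKO libraries.

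The genes whose pattern over the 6 libraries was most like that of the members included other known endothelial genes. Likeness was the root mean square distance between log2 CPM values centred on each gene's mean, set against the members' mean profile, over 9470 other genes with at least 5 CPM on average. The nearest were Aqp1 (0.06), a water channel, and Gpr182 (0.08), an atypical chemokine receptor, both from the sinusoidal list, C1qtnf1 (0.06), She (0.09), Fgd5 (0.09), Arap3 (0.10), Cd300lg (0.11) and Adgra2 (0.11). The median distance of all these genes was 0.41. Among the members themselves the distance went from 0.11 for Stab2 to 0.33 for Lyve1. Each member is part of the mean profile, so its distance is not on equal terms with those of other genes. Aqp1 had 198.3, 105.4 and 139.3 CPM in XCKO 1, 2 and 3, against 123.5, 124.6 and 131.7 CPM in XCON 1, 2 and 3. Fgd5 and Cd300lg are known endothelial genes. The 8 were chosen for this likeness, so their values carry no test.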

How the data were processed

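Per the labels' protocols, total RNA was taken up in Trizol and sequenced from NEBNext Ultra libraries. The authors deposited 1 table of raw read counts per Ensembl gene, FPKM values, group means (a signal on the scale of counts over size factors), log2 fold changes and p-values. Bowtie 0.12.2 is listed in the submitters' processing notes, as are mm8 and mm10, with no roles. No source used here names the read counter or the authors' test.

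Of 54532 genes, 14873 passed filterByExpr. Counts were scaled by TMM (factors 0.850 to 1.12) and fitted on group alone (edgeR 4.0.16, R 4.3.3, robust), at a threshold of 0.05. The biological coefficient of variation came to 25.8%. Each SE is the absolute log2 fold change over the root of F. CPM is per 1000000 of the TMM-scaled total, and log2 CPM uses a prior count of 2. The test was first tested on simulated counts.

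The members and lists were chosen with earlier results of these data known. From each further list up to 5 genes with the smallest p are named, and the 8 genes nearest in pattern, leaving out Gm and Rik names. Alternatives were median-of-ratios factors, library totals, other filters, DESeq2 1.42.0, a replicate block and leaving out each library.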

Additional observations from a re-analysis of the deposited data

How the results depend on the processing

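The count of 0 members past 0.05 held under size factors, library totals, the 5 CPM filter, DESeq2, the replicate block and 5 of the 6 fits without 1 library. It was 1 without a filter on low counts (Tie1, adjusted p = 0.0357 in edgeR) and ranged from 0 to 2 with 1 library left out. For the other endothelial genes the 0 became 9 of 63 with library totals. All 9 were lower, beside 2032 of all 14873 genes tested there. The count became 2 without a filter (8.12% of all genes) and 5 with DESeq2 (17.8% of all). With 1 library left out it ranged from 0 to 2. All genes past 0.05 numbered 1378 (775 higher, 603 lower), 2358 with library totals (326 higher, 2032 lower), 2160 without a filter, 2653 with DESeq2, 322 with the replicate block, and 309 (without XCKO 3) to 810 with 1 library left out. Library totals moved the median of all genes by -0.26. The macrophage and stellate counts, all lower, became 3 and 6 with library totals, beside the same 2032 of 14873 genes. The stellate count was 5 with the 5 CPM filter, beside 630 of all 9891 genes lower there. With 1 library left out the stellate count was 0 to 5, beside 131 to 287 of all genes lower (15257 to 15482 tested). Under library totals Stab1 (-0.246), Oit3 (-0.168), Kdr (-0.0642) and Tek (-0.200) changed sign. Stab1 also changed sign with the 5 CPM filter (-0.0454) and the replicate block (-0.0664), and Oit3 with the replicate block (-0.0026). With 1 library left out, log2 fold changes ranged from -0.38 to 0.23 for Stab1, -0.14 to 0.63 for Stab2, -0.76 to 0.20 for Lyve1, -0.35 to 0.35 for Oit3, -0.41 to 0.26 for Pecam1 and -0.0136 to 0.32 for Tek, with the extremes without XCKO 1, 2 or 3. Same-numbered libraries deviated together with correlations of 0.06, 0.08 and -0.17, and differently numbered ones with -0.16 to 0.11. The numbers thus gave no sign of pairing, although such correlations cannot exclude it. The replicate block changed no call of a member. In these fits Xbp1 stayed lower and past 0.05. The log2 ratio of the members' summed level (0.20) was -0.07 with library totals. The cause of these changes was not tested. With 3 libraries per group, missing the threshold does not show that levels were equal, and genes near 1 CPM rest on few reads.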
